A study of Drosophila melanogaster with 10 samples.

Results

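The nuclear genes for subunits of respiratory complexes II to V were followed across the translatomes of fly dopaminergic (DA) neurons. Members were the FlyBase genes SdhA, SdhB, SdhC, SdhD, RFeSP, Cyt-c1 and Cyt-c-p, and every gene whose symbol starts with UQCR-, with COX4 to COX8 or with ATPsyn, without the paralogs whose symbols end in L, L1 or L2. The rule used names alone and no measured value. It found 32 of the 17716 genes in the table of the 3 TRAP groups, namely 4 of complex II, 8 of complex III, 1 cytochrome c, 8 of complex IV and 11 of complex V. All 32 were also in the table with whole brain, and all 32 passed the filter on low counts in each comparison.

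TRAP-seq pulls down ribosomes that carry GFP-tagged RpL10a, so that mRNA bound to ribosomes is read from the cells that express the tag. Here dTH-Gal4, a driver active in DA neurons, switched on GFP-RpL10a in all 3 TRAP groups, in flies of a w1118 x dTH-Gal4 background. The TRAP control carried the tag alone. PARIS WT also expressed wild-type human PARIS (ZNF746, the parkin interacting substrate, a zinc finger repressor of transcription), and PARIS C571A expressed its C571A mutant in the same cells. Each group had 3 libraries, from separate samples of 500 heads in TRAP control and PARIS C571A and of 1500 heads in PARIS WT, males and females pooled. The number of heads and the PARIS WT genotype cannot be told apart. A single library of total mRNA from w1118 wild-type heads, labelled whole brain, is the reference for the whole tissue. The labels give an age of 30 days for every sample, whereas the methods describe flies collected 2 days after eclosion, and which age applies was not settled. The study asked which translated mRNAs of DA neurons change with PARIS and its mutant.

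These complexes pass electrons to oxygen in the inner mitochondrial membrane and make ATP. Complex II, succinate dehydrogenase, also belongs to the tricarboxylic acid cycle and is wholly nuclear encoded. Complex III passes electrons from ubiquinol to cytochrome c, complex IV (cytochrome c oxidase) passes them on to oxygen, and complex V (ATP synthase) uses the proton gradient so formed. Complexes III to V combine nuclear subunits with others encoded by mitochondrial DNA, of which complex III has cytochrome b alone, and neurons rely heavily on the ATP they supply.

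The libraries held 8819116 to 50102982 counts on genes. Of these, 12.4 to 34.8% fell on rRNA in TRAP libraries and 3.13% in whole brain, and 0.296 to 53.8% fell on mitochondrially encoded genes, with PARIS C571A replicate 2 and PARIS WT replicate 2 lowest at 0.371 and 0.296%. The part of single unevenly counted genes in these low shares was not tested. The 32 members took 0.268 to 0.647% of the counts in TRAP libraries and 1.17% in whole brain. Levels are therefore given as CPM (counts per 1000000, after TMM scaling between libraries), and standard deviations (SD) are over 3 libraries. Library marker levels are given as summed CPM. The 8 neuronal markers summed to 2141 to 2476 CPM in TRAP control, 2296 to 2502 in PARIS C571A and 1757 to 2493 in PARIS WT, the lowest being PARIS WT replicate 2, where Syx1A was at 0. Of the 4 DA neuron markers, ple (tyrosine hydroxylase) was at 0 in TRAP control replicate 2 and PARIS WT replicate 1, and DAT was at 0 in 6 of 9 TRAP libraries, so these 2 genes do not check the cell type in each library. Vmat, the vesicular monoamine transporter, had 217, 226 and 266 CPM in TRAP control, 159, 133 and 167 in PARIS C571A and 169, 189 and 191 in PARIS WT, lower in both PARIS groups without overlap (adjusted p = 0.199 for PARIS C571A and 0.282 for PARIS WT). Ddc, dopa decarboxylase, had 105 to 147 CPM in TRAP control, 137 to 166 in PARIS C571A and 148 to 167 in PARIS WT. The part of these DA marker differences in the members' values was not tested.

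The counts of 4 subunit genes were at or near 0 in single libraries and above 300 in others of the same group, and their values bear on every result. UQCR-Q, a small subunit of complex III (chr3L:17474761-17476124, plus strand), had 1504, 1603 and 1133 counts in TRAP control, 0, 1842 and 4496 in PARIS C571A and 1963, 1237 and 2 in PARIS WT. COX5B of complex IV (chr2L:6557800-6559308) had 417, 0 and 399 counts in TRAP control, 0, 496 and 0 in PARIS C571A and 0, 372 and 689 in PARIS WT. ATPsynD, the d subunit of the ATP synthase peripheral stalk, had 2042, 2165 and 1723 counts in TRAP control, 3005, 2405 and 4855 in PARIS C571A and 6, 1549 and 2598 in PARIS WT. ATPsynbeta, the catalytic subunit of ATP synthase (chr4:1031484-1034917), had 6354, 0 and 3967 counts in TRAP control, 14, 6758 and 14167 in PARIS C571A and 5908, 4641 and 6366 in PARIS WT. In each case the libraries of one group either held the gene at its usual level or hardly at all.

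For 3 of these 4 genes, the deposited table of PARIS C571A and PARIS WT gave other counts for the same libraries. There UQCR-Q had 2742, 0 and 0 counts in PARIS C571A and 0, 0 and 2411 in PARIS WT, so that each library was high in one table and at or near 0 in the other. COX5B had 726, 0 and 1095 counts in PARIS C571A and 584, 0 and 0 in PARIS WT, again the reverse of the 3-group table. ATPsynbeta had 9494, 0 and 22 counts in PARIS C571A and 3, 101 and 13 in PARIS WT. ATPsynD had the same counts in both tables, and ATPsynC differed between them by 1 count at most. A median of at least 300 counts was reached by 3713 genes over the 9 TRAP libraries, of which 219 (5.9%) had at most 40 counts in some library, against 4 of 31 members. Between the tables, 761 of 17691 genes differed. The means of these 4 members therefore describe how often a count was given as much as a level, and the cause was not tested. The other 28 members are named the steadily counted members here.

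**Figure D1:**
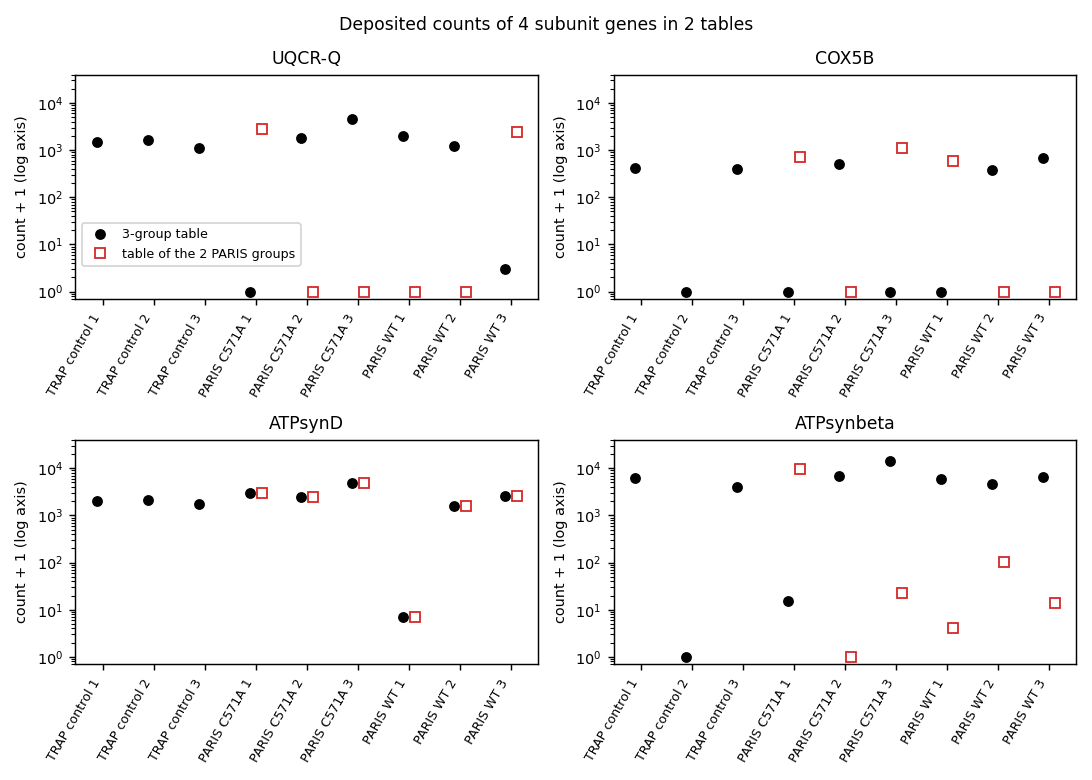
Counts + 1 (log axis) of UQCR-Q, COX5B, ATPsynD and ATPsynbeta in each of the 9 TRAP libraries, as filled circles for the table of 3 groups and open squares for the table of the 2 PARIS groups, which has no TRAP control. For UQCR-Q and COX5B each PARIS library is high in one table and at or near 0 in the other, while ATPsynD has equal counts in both.

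In TRAP control, the levels per kb of exon spanned the range from ATPsynC, which forms the rotating c-ring of ATP synthase, at 374 ± 1.85 CPM per kb, to UQCR-11 of complex III at 8.11 ± 1.49 (SD, n = 3). Cytochrome c, encoded by Cyt-c-p, was next below ATPsynC at 233 ± 10.2 CPM per kb. Within complex II, the iron-sulfur subunit SdhB was highest at 73.0 ± 11.1 and the membrane anchor SdhD lowest at 24.7 ± 5.11 CPM per kb. Within complex III, the core protein UQCR-C1 led at 145 ± 18.4 CPM per kb. COX5A led complex IV at 139 ± 14.2 CPM per kb, and COX5B, with 1 library at 0, was lowest at 23.5 ± 21.1. In complex V, ATPsyndelta of the central stalk was lowest at 11.7 ± 1.97 CPM per kb. The lengths are the union of all annotated exons, so a gene with long alternative transcripts, such as ATPsyndelta with 3.817 kb, comes out low. The library preparation did not mark strand as far as the sources state, and UQCR-14 lies wholly (100% of its exon bases) within an exon of CG32576 on the other strand, so reads of these 2 genes cannot be told apart. UQCR-6.4 shares 40.5% of its exon bases with POSH on the other strand, which had 12.6 CPM in TRAP control against 5.50 for UQCR-6.4. ATPsyndelta shares 35.6% with CG2962, which had 0 CPM there, and COX7C shares 15.7% with oys, which had 63.6 CPM.

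**Figure D2:**
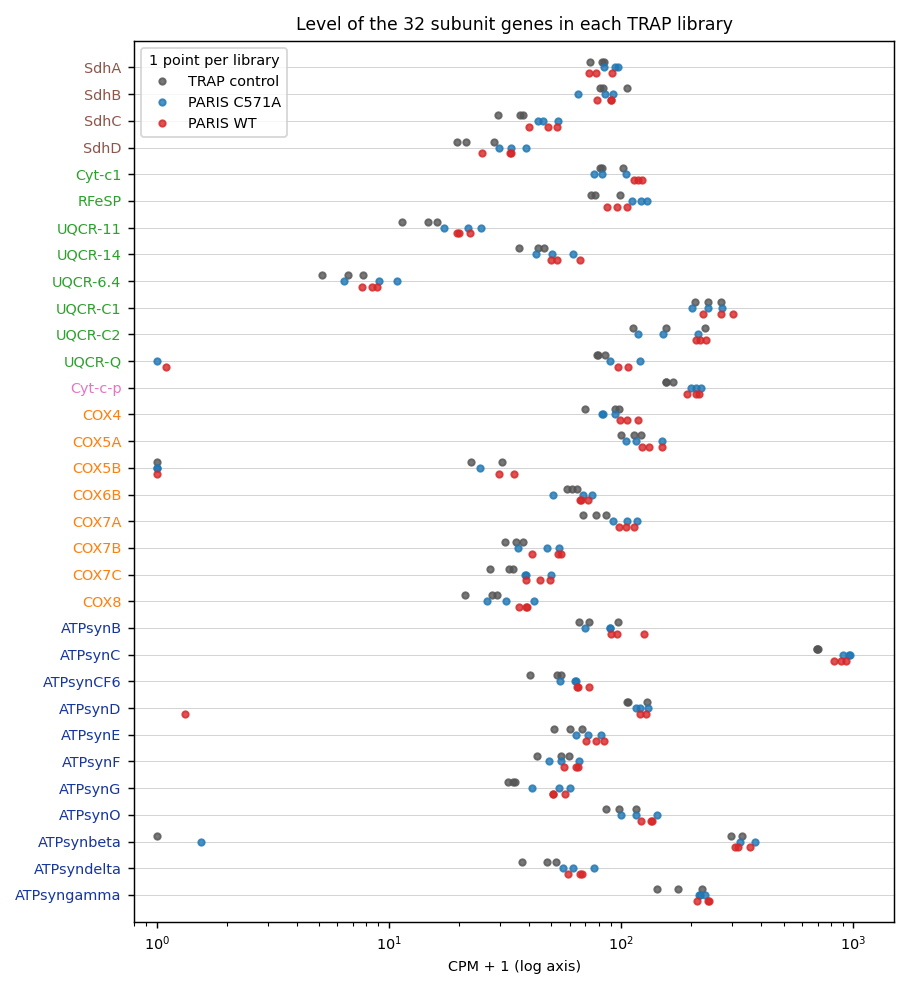
CPM + 1 (log axis) of each of the 32 subunit genes, 1 point for each of the 9 TRAP libraries, with TRAP control in grey, PARIS C571A in blue and PARIS WT in red and gene names coloured by complex (brown II, green III, pink cytochrome c, orange IV, dark blue V). ATPsynC is highest in each library, and the points at the left edge are the libraries in which UQCR-Q, COX5B, ATPsynD or ATPsynbeta was at or near 0.

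Against whole brain, most of these genes were lower in the TRAP control translatome. The median log2 ratio of the 32 members was −0.94 (SD 0.19 over 3 replicates), against −0.44 for all 14480 genes with counts, and 22 members (68.8%) were below 0 in each replicate, as were 40.8% of all genes, while 7 (21.9%) were above, as were 22.6% of all genes. With 1 whole brain library there was no test. The medians were −1.14 for complex II, −1.04 for complex III, 0.07 for cytochrome c, −1.19 for complex IV and −0.69 for complex V. Over the 28 steadily counted members the median was −0.99. The TMM scaling sets how low these ratios lie, since without it the members' median was −2.06 and that of all genes −1.44.

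The lowest ratio among the steadily counted members was that of UQCR-6.4 of complex III, with 5.09, 6.89 and 8.15 CPM in the TRAP control replicates against 57.3 in whole brain, a mean log2 ratio of −3.11 (SD 0.34). Reads from the 40.5% of its exon bases shared with POSH cannot be assigned to either gene. COX7C was lowest in complex IV, with 32.02, 38.8 and 40.5 CPM against 169 (−2.20, SD 0.18). SdhA, the flavoprotein that oxidises succinate, had 100, 88.1 and 101 CPM against 285.5, and was lowest in complex II at −1.57 (SD 0.11). SdhB was nearly level, with 101, 97.7 and 127 CPM against 113 (−0.07, SD 0.21), so the catalytic pair of complex II had unlike ratios. ATPsynbeta had 404.5, 0 and 359 CPM against 1291 in whole brain, and its log2 ratios in the replicates with counts were −1.67 and −1.85.

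Of the members above whole brain, 5 were steadily counted. ATPsynCF6 of the peripheral stalk had 48.2, 63.1 and 65.7 CPM against 38.2 (0.62, SD 0.24), ATPsyngamma of the central stalk had a mean log2 ratio of 0.37 (SD 0.32), ATPsynC of 0.26 (SD 0.01), COX7A of 0.23 (SD 0.16) and Cyt-c-p of 0.07 (SD 0.06). In the steadily counted part of complex V the ratios thus ran from −2.03 for ATPsynG to 0.62. The high ratios of UQCR-Q (8.34) and ATPsynD (6.27) rest on 5 and 36 counts in whole brain, and COX5B had 0 counts there, so the same uneven counting touches these 3 values. The neuronal markers were above whole brain in each replicate for 8 of 8 genes (median 1.85), as were the DA neuron markers Vmat and Ddc but not ple and DAT with their libraries at 0. Of the other cell types, 7 of 8 muscle markers were below (median −2.54) and 5 of 7 glial markers were below (median −3.16). So were 5 of 7 photoreceptor markers (median −0.40) and 6 of 7 fat body markers (median −0.79), while 9 of 9 testis markers were above (median 2.15). The part of the makeup of the tissue in the members' ratios was not tested. TRAP control and whole brain also differ in ribosome pulldown against total mRNA and in genotype, which cannot be told apart here. In such bulk libraries, fewer cells of a type and less RNA per cell cannot be told apart.

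**Figure D3:**
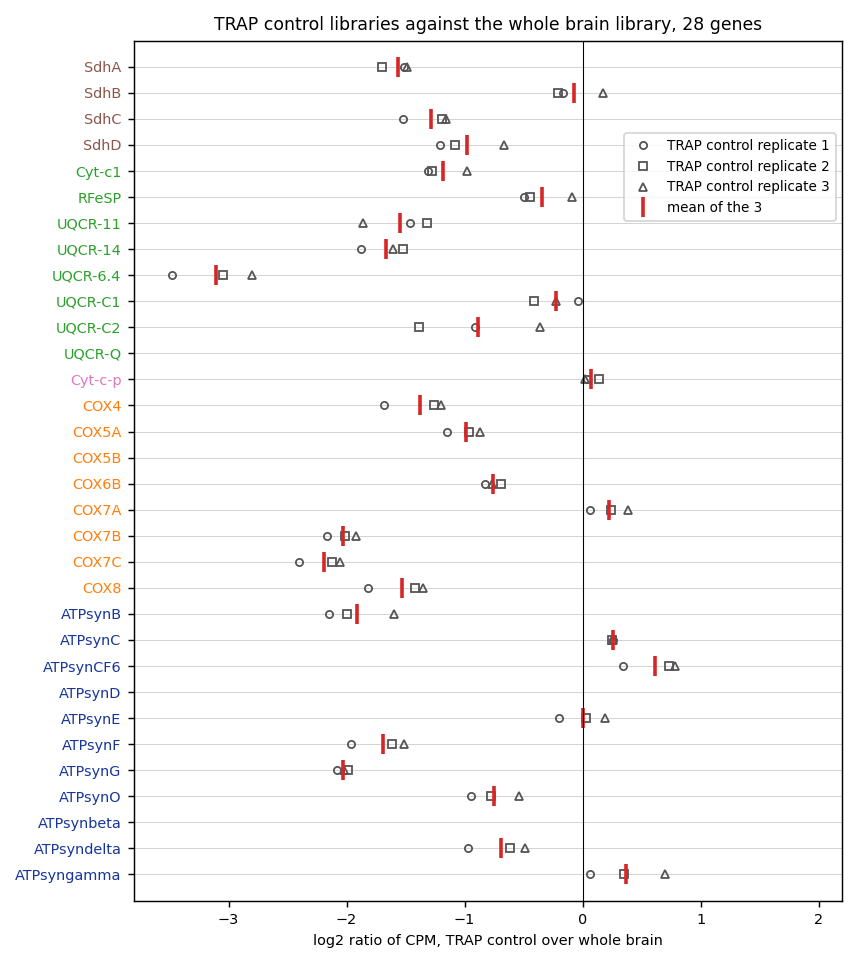
Log2 ratio of CPM in each TRAP control replicate over the whole brain library (horizontal axis) for the 28 steadily counted subunit genes, with the mean of 3 replicates as a red bar. UQCR-Q, COX5B, ATPsynD and ATPsynbeta have no points, names are coloured by complex (brown II, green III, pink cytochrome c, orange IV, dark blue V), and UQCR-6.4 lies lowest at −3.11 and ATPsynCF6 highest at 0.62.

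In PARIS WT, these subunit genes were mostly a little higher than in TRAP control, and none passed the adjusted threshold. The log2 fold change was above 0 for 29 of 32 members, with a median of 0.40 against −0.02 for all 9697 genes tested, and the members counted steadily had a median of 0.41. By edgeR's quasi-likelihood test with Benjamini-Hochberg adjustment, 0 of 32 members were called, where 0.712% of all genes were. The smallest adjusted p was 0.109. At an unadjusted p under 0.05, 14 members were higher, or 14 of the 28 counted steadily, where 4.23% of all genes were, and 0 were lower, where 7.4% of all genes were. Each PARIS WT library lay above each TRAP control library for 18 members (9.68% of all genes) and below for 0 (12.3% of all genes). The summed level of the 28 steadily counted members was 2728 ± 231 CPM in TRAP control and 3424 ± 197 in PARIS WT.

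The count of 14 depends on single libraries and on the scaling. Leaving out TRAP control replicate 1 gave 6 members, all higher, where 482 of 10254 genes were higher. Leaving out PARIS WT replicate 1, 2 or 3 gave 8, 7 or 4, where 299 of 10549, 323 of 10565 or 269 of 10572 genes were higher. The count was 2 with libraries scaled to counts outside rRNA, small RNA and mitochondrial genes, where 275 of 9697 genes were higher. There the members' median was 0.33 and that of all genes −0.08. DESeq2's Wald test, the tool the study used, called 3 members, Cyt-c-p (adjusted p = 0.0131), ATPsynC (0.00176) and ATPsynG (0.00299), all higher in PARIS WT. It called 739 of 13987 genes in all, 167 of them higher.

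Complex V held the gene with the smallest p. ATPsynG, a membrane subunit of ATP synthase, had 31.4, 33.8 and 33.2 CPM in TRAP control, 52.8, 40.3 and 58.9 in PARIS C571A and 49.9, 49.8 and 56.4 in PARIS WT. Its TRAP control libraries lay below all 6 PARIS libraries, and PARIS WT was 1.58-fold higher (log2 0.66, SE 0.13, 95% interval 0.35 to 0.98, adjusted p = 0.109). ATPsynC had 698, 696.5 and 703 CPM in TRAP control, 958, 898 and 969.5 in PARIS C571A and 824, 883 and 927 in PARIS WT. The TRAP control values had an SD of 3.46 CPM and again lay below all 6 PARIS libraries, with a log2 fold change of 0.33 in PARIS WT (SE 0.09, adjusted p = 0.192). ATPsyndelta had 36.5, 46.7 and 51.1 CPM in TRAP control, 54.9, 61.1 and 75.2 in PARIS C571A and 67.0, 57.9 and 65.4 in PARIS WT, also without overlap. For ATPsynB, which builds the peripheral stalk, TRAP control overlapped both PARIS groups, which did not overlap each other, with 64.6, 71.9 and 95.4 CPM in TRAP control, 68.7, 88.2 and 88.3 in PARIS C571A and 94.4, 89.0 and 124 in PARIS WT. The remaining steadily counted subunits were ATPsynCF6, ATPsynE, ATPsynF, ATPsynO and ATPsyngamma, with log2 fold changes in PARIS WT from 0.23 (ATPsynF) to 0.46 (ATPsynCF6). Complex V had 6 of 11 members at an unadjusted p under 0.05, all higher (4.23% of all genes), and a median log2 fold change of 0.39.

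In complex IV, 7 of 8 members had each PARIS WT library above each TRAP control library (9.68% of all genes), the exception being COX5B. Of these, COX4, COX5A and COX6B had unadjusted p of 0.11, 0.087 and 0.20 by edgeR's test. COX7A had 67.6, 77.2 and 85.3 CPM in TRAP control, 105, 91.6 and 116 in PARIS C571A and 103.5, 96.6 and 113 in PARIS WT. Both PARIS groups were clear of the control, by log2 0.44 in PARIS WT (SE 0.13, adjusted p = 0.239). COX4 had 68.9, 92.7 and 96.7 CPM in TRAP control, 81.9, 82.5 and 93.4 in PARIS C571A and 97.9, 105 and 117.5 in PARIS WT. It was set apart from COX7A by PARIS C571A, which lay within the range of the control. COX5A had 98.5, 112 and 121 CPM in TRAP control, 114, 103.5 and 148 in PARIS C571A and 131, 122 and 149 in PARIS WT, where the lowest PARIS WT library was just above the highest control. COX7C had 26.1, 31.8 and 33.3 CPM in TRAP control, 37.7, 37.7 and 49.0 in PARIS C571A and 43.8, 38.1 and 48.5 in PARIS WT. COX6B, COX7B and COX8 had log2 fold changes of 0.16, 0.54 and 0.57 in PARIS WT. The complex had 4 of 8 members at an unadjusted p under 0.05, all higher (4.23% of all genes), and a median log2 fold change of 0.38.

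Cytochrome c is the soluble carrier between complexes III and IV, and Cyt-c-p encodes the form used in most tissues. It had 155, 167 and 154.5 CPM in TRAP control, 209, 199.6 and 219 in PARIS C571A and 216, 192 and 209 in PARIS WT. All PARIS libraries lay above all controls, with log2 fold changes of 0.37 in PARIS WT (SE 0.10, adjusted p = 0.185) and 0.40 in PARIS C571A (SE 0.10, adjusted p = 0.244).

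In complex III, Cyt-c1 carries the heme that hands electrons to cytochrome c. Its libraries had 79.8, 81.8 and 101 CPM in TRAP control, 75.1, 103.5 and 81.7 in PARIS C571A and 113, 122 and 117 in PARIS WT, so PARIS WT alone lay above the other groups (log2 0.42 over control, SE 0.13, adjusted p = 0.254). RFeSP, the Rieske iron-sulfur protein, had the other order, with 73.2, 75.8 and 98.0 CPM in TRAP control, 110.5, 127.5 and 121 in PARIS C571A and 94.8, 86.2 and 105 in PARIS WT. UQCR-11 had 13.7, 15.1 and 10.4 CPM in TRAP control, 20.8, 16.3 and 24.0 in PARIS C571A and 19.1, 18.7 and 21.3 in PARIS WT, with no overlap of the control with either group. UQCR-C1 had 267, 207 and 236 CPM in TRAP control, 201.5, 272 and 234 in PARIS C571A and 223, 267 and 301 in PARIS WT, and the 3 groups overlapped. UQCR-6.4, lowest in mean CPM though not per kb, had 4.16, 5.65 and 6.71 CPM in TRAP control, 8.07, 5.41 and 9.84 in PARIS C571A and 6.68, 7.49 and 7.87 in PARIS WT. UQCR-14 and UQCR-C2 had log2 fold changes of 0.43 and 0.41 in PARIS WT. The complex had a median of 0.41 and 2 of 8 members at an unadjusted p under 0.05, both higher (4.23% of all genes).

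Complex II had a median log2 fold change of 0.21 and 1 of 4 members at an unadjusted p under 0.05, which was higher (4.23% of all genes). SdhC, a membrane anchor, had 28.4, 35.8 and 36.9 CPM in TRAP control, 52.7, 45.0 and 42.8 in PARIS C571A and 39.0, 47.6 and 51.7 in PARIS WT, where all PARIS libraries lay above the control (log2 0.45 in PARIS WT, SE 0.18, adjusted p = 0.41). SdhD, the other anchor, had 18.6, 20.4 and 27.3 CPM in TRAP control, 28.7, 32.5 and 37.8 in PARIS C571A and 24.1, 32.1 and 32.5 in PARIS WT. For the catalytic subunits, PARIS WT and TRAP control overlapped. SdhA had 81.8, 72.2 and 83.4 CPM in TRAP control, 95.6, 93.2 and 83.5 in PARIS C571A and 71.6, 90.5 and 77.2 in PARIS WT (log2 0.01, 95% interval −0.32 to 0.34). SdhB had 82.4, 80.1 and 105 CPM in TRAP control, 63.9, 91.6 and 83.9 in PARIS C571A and 89.4, 89.0 and 77.8 in PARIS WT (log2 −0.06, 95% interval −0.42 to 0.30).

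**Figure D4:**
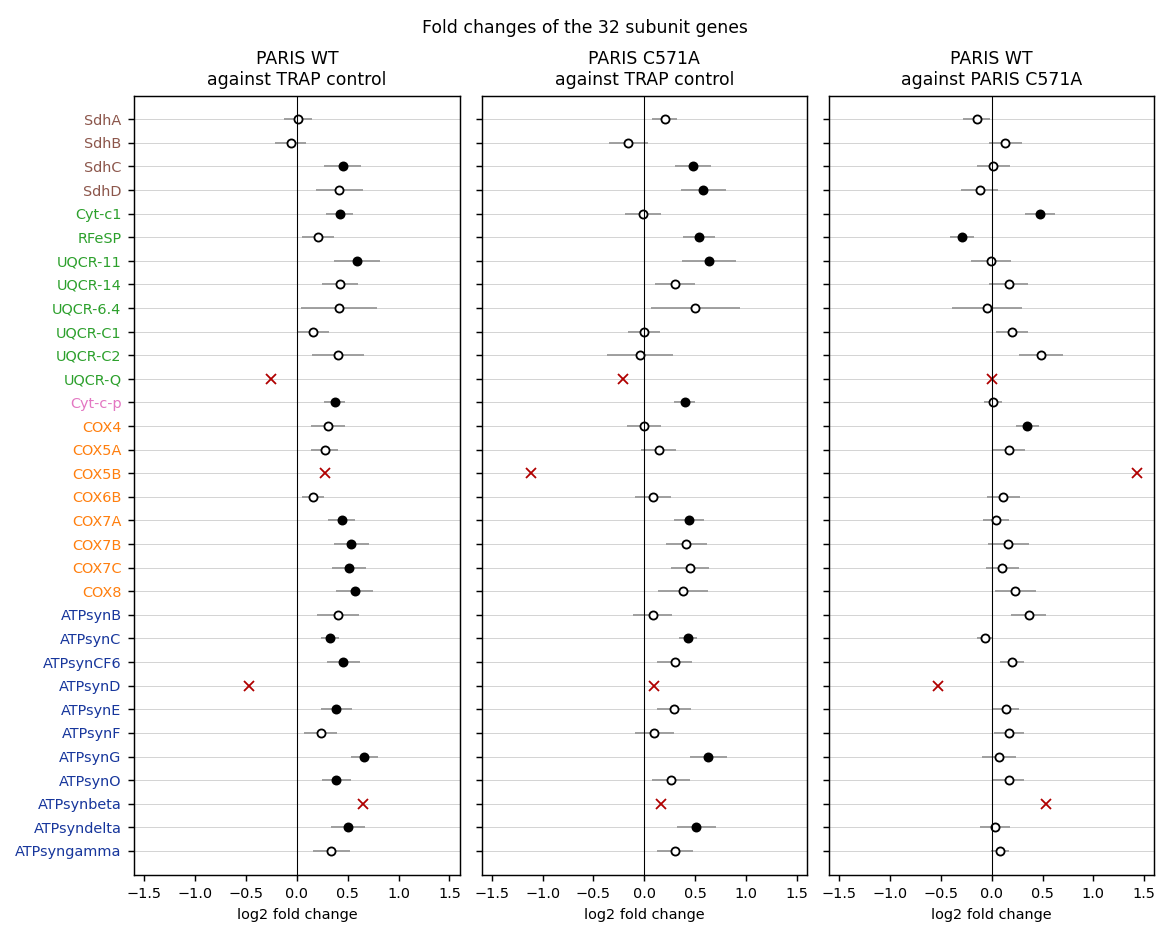
Log2 fold change of each of the 32 subunit genes in the 3 comparisons, with bars of 1 standard error, filled circles at an unadjusted p under 0.05 and open circles otherwise. Red crosses without bars are UQCR-Q, COX5B, ATPsynD and ATPsynbeta, whose fits have standard errors of up to 2.61, and names are coloured by complex (brown II, green III, pink cytochrome c, orange IV, dark blue V). Filled circles number 14, 9 and 3 from left to right, and those of the first 2 panels all lie above 0.

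In PARIS C571A, the members were also mostly higher than in TRAP control, with 25 of 32 above 0, a median log2 fold change of 0.30 (0.01 for all 9986 genes tested) and 0 past the adjusted threshold (0.17% of all genes). At an unadjusted p under 0.05, 9 were higher (4.52% of all genes) and 0 lower (5.32%). The groups did not overlap for 11 members higher (9.86% of all genes) and 0 lower (10.6%). The smallest p was that of ATPsynC, with a log2 fold change of 0.43 (SE 0.09, adjusted p = 0.193), followed by Cyt-c-p and by RFeSP with 0.54 (SE 0.15, adjusted p = 0.313). ATPsynG had 0.63, UQCR-11 0.64, SdhD 0.58, ATPsyndelta 0.51, SdhC 0.48 and COX7A 0.44. The medians by complex were 0.34 for II, 0.15 for III, 0.26 for IV and 0.29 for V. PARIS WT and PARIS C571A were set against the same TRAP control libraries, so their changes are not independent of each other. The summed level of the 28 steadily counted members in PARIS C571A was 3299 ± 136 CPM. DESeq2 called 2 members, ATPsynC (adjusted p = 6.87e-10) and Cyt-c-p (0.0029), both higher, where it called 439 of 14168 genes in all, 135 of them higher. Without TRAP control replicate 1 or TRAP control replicate 2, 4 members were higher at an unadjusted p under 0.05, as were 542 of 10557 or 499 of 10629 genes. Without PARIS C571A replicate 3, 5 members were higher, as were 304 of 10744 genes.

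The median log2 fold change of PARIS WT over PARIS C571A was 0.12 (−0.02 for all 9403 genes tested), 25 of 32 members were above 0, and 0 passed the adjusted threshold (0.0213% of all genes). At an unadjusted p under 0.05, 2 members were higher in PARIS WT (4.08% of all genes), and 1, RFeSP, was lower (4.21% of all genes), with shares near those of all genes. The PARIS groups did not overlap for 4 members higher (7.06%) and 1 lower (10.1%). Cyt-c1 was 1.39-fold higher in PARIS WT (log2 0.48, SE 0.15, adjusted p = 0.424), COX4 was higher by log2 0.35 (SE 0.12, adjusted p = 0.468), and RFeSP was at log2 −0.29 (SE 0.12, adjusted p = 0.578). ATPsynB had the smallest p of complex V, at log2 0.36 (95% interval −0.05 to 0.78), and SdhA that of complex II, at −0.15 (95% interval −0.47 to 0.17). For Cyt-c-p the interval was −0.20 to 0.23 and for ATPsynC −0.25 to 0.12. These intervals hold under the TMM scaling, for groups that also differ in the number of heads. With libraries scaled to counts outside rRNA, small RNA and mitochondrial genes, the median was −0.01 and that of all genes −0.16.

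The paralogs left out of the membership, most of which carry a suffix L and several of which are known from testis in Drosophila, had lower values in PARIS WT. Of 18 in the tables, 11 passed the filter for PARIS WT against TRAP control and 0 were called. Most passed it through the TRAP control counts alone, which sets their direction, so their counts are given as a description. Cyt-c-d, the second cytochrome c gene and the one used in sperm, had 83, 77 and 77 counts in TRAP control, 0, 76 and 0 in PARIS C571A and 0, 0 and 0 in PARIS WT. SdhBL had 69, 78 and 22 counts in TRAP control and 0 in each PARIS WT library. In all, the paralogs summed to 32.9 ± 3.33 CPM in the control, 12.0 ± 2.44 with PARIS C571A and 2.71 ± 0.97 with PARIS WT, and 10 of the 18 had 0 counts in each PARIS WT library. Testis markers, 9 genes, summed to 311 to 344 CPM in TRAP control, 87.1 to 118 in PARIS C571A and 12.6 to 19.4 in PARIS WT, and were higher in TRAP control than in whole brain in each replicate for all 9. Their part in the paralogs' values was not tested.

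Markers of other cells moved with the groups less widely. The 7 glial markers summed to 716 to 769 CPM in TRAP control, 972 to 1100.0 in PARIS C571A and 829 to 960.4 in PARIS WT, higher in both PARIS groups as the members were, and repo, which marks glial nuclei, was at 0 in TRAP control replicate 1. The 8 muscle markers summed to 802 to 932, 731 to 851 and 646 to 854.0 CPM in the same order, overlapping, with Act88F at 0 in each TRAP control library. Photoreceptor markers, 7 genes, summed to 13050 to 14240, 14640 to 14920 and 12050 to 13300 CPM. Fat body markers, 7 genes, summed to 8530 to 15090, 14080 to 15490 and 13230 to 14210 CPM, with Yp3 at 0 in TRAP control replicate 2. The part of these cells in the members' values was not tested.

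Other genes of the same machinery were counted in the same way, and no list was tested against the members. Of the nuclear subunits that keep other names, sun (the epsilon subunit of ATP synthase), levy and cype (of complex IV) and ox (of complex III), 4 of 4 were above 0 in PARIS WT (median log2 0.56), and 1, sun, had an unadjusted p under 0.05 (0.59, adjusted p = 0.287). In complex I, 26 of 31 tested subunits were above 0 in PARIS WT with a median of 0.21, and 1 (ND-20) was higher at an unadjusted p under 0.05 (4.23% of all genes). Of 12 tricarboxylic acid cycle enzymes, 8 were above 0 with a median of 0.12, and of 13 assembly factors 8 were, with a median of 0.26. In PARIS C571A the medians of these lists were 0.58, 0.13, 0.12 and 0.18. Mpcp2, which imports the phosphate that ATP synthase uses, was higher by log2 0.51 in PARIS WT (SE 0.13, adjusted p = 0.159) and by 0.68 in PARIS C571A (SE 0.15, adjusted p = 0.199). Ant2, an ADP/ATP carrier, was at −1.79 in PARIS WT (SE 0.50, adjusted p = 0.188) and at −0.41 in PARIS C571A (SE 0.61). The other ADP/ATP carrier, sesB, went the other way, at 0.71 in PARIS WT (SE 0.55) and 0.50 in PARIS C571A (SE 0.67). Mpcp1 was at 0.01 in PARIS WT (SE 0.25) and 0.06 in PARIS C571A (SE 0.22). These 4 carriers summed to 635, 262 and 613 CPM in TRAP control, 443, 821 and 889 in PARIS C571A and 735.5, 790 and 775 in PARIS WT. Whether uneven counting lies behind the opposite directions of Ant2 and sesB was not tested. Of the mitochondrially encoded subunits, mt:CoII, mt:Cyt-b and mt:CoI had log2 fold changes of 0.94, 0.89 and 0.64 in PARIS WT and mt:ATPase6 of −0.07 with a standard error of 2.50, and 0 of 4 passed the adjusted threshold. The promoters of the members were also searched for motifs, though not for the PARIS binding motifs that the study reports. A second motif searched is not reported, because its sequence could not be checked against a source. The core of the DNA replication-related element, TATCGATA, is a motif of many Drosophila housekeeping promoters that reads the same on both strands. It was found within 250 bases before to 50 after the start of the canonical transcript in 3 of 32 members (9.38%). The share was 8.82% of 13825 protein-coding genes and 11.47% of the 9290 of them tested for PARIS WT against TRAP control, so the members lay near both. The 30 bases around each are shown with the core in capitals, on the gene's strand, from RefSeq's Release 6 genome.
UQCR-14 (chrX:16286215-16286244, plus strand, core from base −62): tgagtgcgataTATCGATAggtgcagtgtg
COX4 (chr2L:19958600-19958629, plus strand, core from base −221): gcgattgaataTATCGATAtattaatattt
COX7A (chr3R:8341027-8341056, minus strand, core from base −146): cgacatcgatgTATCGATAatacatcgata
These 3 genes had log2 fold changes of 0.43, 0.31 and 0.44 in PARIS WT, within the range of the members without the core.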

How the data were processed

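Per the submitters' processing notes and the study's methods, the authors checked reads with FastQC 0.11.6, aligned them with HISAT2 2.1.0 to the BDGP6.28 genome, and estimated transcript coverage with StringTie 2.0 (reads that map to several places are down-weighted in its default mode), which the prepDE script turned into gene counts. The deposited tables hold the resulting estimated counts per gene as whole numbers, not scaled, with replicates kept apart; such counts come from coverage of assembled transcripts and need not equal reads. Entries that name no gene (at most 0.0209% of a library) were left out. Gene identifiers were named through Ensembl's BDGP6.54 annotation, which matched 17650 of 17747 on the same assembly.

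Each comparison used the libraries of its 2 groups in the 3-group table. Genes were filtered with filterByExpr (minimum count 10, minimum total 15), TMM-scaled and put to edgeR 4.0.16's test (quasi-likelihood F, two-sided, Benjamini-Hochberg adjustment over all genes tested, threshold 0.05) in R 4.3.3. The standard error is the size of the log2 fold change over the square root of F, and the 95% interval uses the t quantile at the fit's degrees of freedom. Ratios to the single whole brain library used a prior count of 1 and no test. Alternatives were DESeq2 1.42.0, other scalings, filters and tables, a replicate block and each library left out. Libraries came from independent samples, and their number limits the precision. The comparisons of the 2 PARIS groups with TRAP control share its libraries. Tables and plots were made with pandas 2.3.3 and matplotlib 3.10.9.

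The members and the gene lists were chosen with earlier results of these data known. Values per library are given for members with the smallest p of their complex in a comparison, with the highest or lowest level per kb or ratio to whole brain, or with a count of 0 or counts that differ between tables; other members are given by their fold change or range. Genes of the other lists were named among the smallest p. The exceptions, all named, were the subunits named outside the rule, the 4 carriers and the 4 mitochondrially encoded subunits found. Sequence was read from RefSeq's Release 6 genome.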

Additional observations from a re-analysis of the deposited data

Results flagged for a closer look

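Counts outside the 3-group table drew attention where that table held at most 40 and the table of the 2 PARIS groups more than 300 for the same library. UQCR-Q had 2742 counts there in PARIS C571A replicate 1 and 2411 in PARIS WT replicate 3. COX5B had 726 in PARIS C571A replicate 1, 1095 in PARIS C571A replicate 3 and 584 in PARIS WT replicate 1. ATPsynbeta had 9494 in PARIS C571A replicate 1. With the higher count of the tables, UQCR-Q had 108, 87.6 and 118 CPM in PARIS C571A and 105, 94.2 and 115.3 in PARIS WT, against 78.0, 77.4 and 83.7 in TRAP control. Groups of 3 libraries were not tested for outliers.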

How the results depend on the processing

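Between 0 and 3 members passed the adjusted threshold under the alternatives. Only DESeq2 called any, 3 for PARIS WT and 2 for PARIS C571A, against 0 with edgeR under each other setting, and it called 739, 439 and 321 genes in all (PARIS WT against control, PARIS C571A against control, PARIS WT against PARIS C571A) where edgeR called 69, 17 and 2. The cause was not tested. With libraries scaled to counts outside rRNA, small RNA and mitochondrial genes, 2 members had an unadjusted p under 0.05 in PARIS WT against control, and 1 member and 5 called genes were found between the PARIS groups. With all 3 groups in one fit, those were 1 member and 35 genes. DESeq2 gave 5 members there. The table of the 2 PARIS groups gave 5 called genes. Taking each gene's highest count over the tables, which could raise PARIS counts only, was an alternative chosen after seeing the data. It gave 7 called genes for PARIS C571A against control and 8 between the PARIS groups. So chosen, too, was leaving out the 4 unevenly counted members, which moved no median past its replicate spread. Without TMM, the members' median ratio to whole brain was −2.06.

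Over the genes past the filter, same-numbered libraries did not deviate together (r from −0.0369 to 0.0514 over 9 pairs), and the labels state no pairing. Yet PARIS C571A replicate 2 and PARIS WT replicate 2 were both lowest in mitochondrially encoded counts (0.371 and 0.296%). The 4 mitochondrially encoded subunits summed to 1976 and 1811 CPM there, against 160000 to 714900 in the other TRAP libraries. Of these 4, 3 lay below whole brain in each TRAP control replicate and 1 above, with a mean log2 ratio of 22.45. Whether the low shares come from uneven counting of a single gene, as in UQCR-Q, was not tested. Whether same-numbered libraries shared a preparation was not tested. With the replicate block, 2, 0 and 0 genes and no member were called, and the members' medians were 0.40, 0.30 and 0.14.

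Leaving out each library in turn gave 4 to 18 members at an unadjusted p under 0.05 in PARIS WT against control, 4 to 9 in PARIS C571A against control and 0 to 3 between the PARIS groups. Called genes ranged from 13 to 44, from 3 to 18 and from 2 to 17. The members' medians ranged from 0.32 to 0.52, from 0.20 to 0.39 and from 0.05 to 0.21. For 26 results of members at an unadjusted p under 0.05, the direction held in 367 of 367 alternatives. The alternatives refit the same libraries for genes picked by their p in the main fit, so a change of direction was unlikely from the start. This count is therefore no independent check.

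UQCR-6.4 had 80 to 371 counts per TRAP library, the fewest of the steadily counted members, and its standard errors of up to 0.44 limit what can be said of it.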
